A study of Homo sapiens with 9 samples.

Results

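MDA-MB-231 cells that expressed isoform 1 of oestrogen receptor beta (ERβ1) were compared with MDA-MB-231 cells that carried a control vector, with no ligand added in either group. The 6 libraries of this comparison, 3 of ERβ1 cells and 3 of control cells, were taken by their titles and count columns out of 9 libraries in the series, and all genes entered. MDA-MB-231 is an established human cell line from a triple negative breast cancer, a tumour without appreciable classical oestrogen receptor, progesterone receptor or amplified HER2. The other 3 libraries came from ERβ1 cells given the ligand CLI for 24 h, and their levels are named only beside genes described here. The study set receptor cells beside control cells to ask what the receptor does to gene expression in such a cancer, as its title poses ERβ1 as a target for therapy.

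ERβ1 cells had been transduced with a lentiviral vector from which doxycycline switches on GFP, luciferase and ERβ1. Control cells carried the same kind of vector with GFP and luciferase and without the receptor. Their titles read control cells, whereas their count columns are headed WT+dox. Both groups received doxycycline at 100 ng/ml for 3 days in medium with serum, so the antibiotic and the reporter proteins are shared. The sources used here do not say whether each group was a pool of transduced cells or 1 clone, nor whether the 3 libraries of a group came from separate cultures. The p-values therefore measure the spread between these samples only. Receptor action and any other difference between the transduced populations cannot be told apart here, and in such bulk RNA more cells with a transcript cannot be told apart from more transcript per cell.

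ERβ1 is a ligand-activated transcription factor encoded by ESR2. Oestrogen receptors bind DNA as dimers at a palindrome of spaced AGGTCA arms, the oestrogen response element, and also act through partner factors such as AP-1. They recruit coactivators or corepressors, and receptor without added ligand can still occupy DNA. In breast tissue ERβ is found in luminal, basal and stromal cells, and isoform 1 is the full-length form that binds ligand.

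The libraries held 39902732 to 55387274 estimated counts in ERβ1 cells and 43487728 to 46676226 in control cells, and 17058 of 60240 genes had enough counts to be tested. Mitochondrial transcripts took 7.19 to 7.80% of the counts in ERβ1 libraries and 6.93 to 7.34% in control libraries. Levels are counts per 1e+06 (CPM) of a library scaled by TMM, and they are not divided by transcript length. For genes at a mean of at least 10 CPM the median coefficient of variation between replicates was 4.43% in ERβ1 cells and 4.21% in control cells. ESR2 stood at 118, 115 and 118 CPM in the ERβ1 libraries, against 0.132, 0.140 and 0.140 CPM in the control libraries. Each library therefore matched its label, and reads from the vector and from the resident gene were counted together.

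Calls of marker genes are given beside those of all genes tested, of which 10.7% were higher and 10.7% lower (edgeR adjusted p under 0.05). Of the 2283 genes over 100 CPM, 225 were higher and 612 lower. The line's own identity was read from marker genes. Its mesenchymal markers were abundant in both groups, with a sum over 12 genes of 8252 to 8425 CPM in ERβ1 libraries and 9086 to 9510 CPM in control libraries. VIM, the intermediate filament vimentin, averaged 2459.9 ± 43.6 CPM in ERβ1 cells and 3041 ± 109.7 CPM in control cells, and AXL, a receptor kinase, 1871 ± 46.9 CPM in ERβ1 cells and 2229.5 ± 57.2 CPM in control cells (SD, n = 3 each). Both fell, and of the 12 markers 3 were called higher and 5 lower. The lower calls numbered 3 without ERβ1 replicate 1 or 2 or control replicate 1, and the higher calls 5 with upper quartile scaling or the filter at 1 CPM. Luminal breast markers summed to 1209 to 1295 CPM in ERβ1 libraries and 1367 to 1401 CPM in control libraries, most of it from keratin genes and XBP1 that this line also expresses, and 6 of the 15, ESR1, PGR and FOXA1 among them, lay under 1 CPM in every library. Of 9 luminal markers tested, 1 was called higher, CDH1, and 4 lower, XBP1, SPDEF, AGR2 and KRT8. Fibroblast markers summed to 26.3 to 36.4 CPM in ERβ1 libraries and 22.97 to 31.0 CPM in control libraries, with 2 of 4 tested genes called higher, LUM and COL1A1, of which COL1A1 lost its call without 5 of the 6 libraries in turn, with an edgeR adjusted p of up to 0.135. Blood cell markers summed to 97.6 to 100.2 CPM in ERβ1 libraries and 86.3 to 87.8 CPM in control libraries, nearly all from CD68, with 1 of 4 tested genes, LYZ, higher, or 2 with the 6 libraries compared alone. COL3A1, DCN, PTPRC, CD3E and the haemoglobin genes were under 0.5 CPM on average in both groups.

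The receptor's possible contact with DNA near the genes described below was looked at in their promoter sequences. Of the 55 genes named for the size of their change, 38 had a RefSeq promoter window of 300 bases (GRCh38.p14, from 250 bases before the annotated start to 50 after it). Genes without a matched window were not searched. Among them were the rises C3, FBXL16, CST1, GREB1, MPZL2, SNAI1 and UCA1 and the fall ADAMTS1. None of the 38 windows held the exact palindrome GGTCANNNTGACC, which reads the same on both strands. It was found in 18 of all 27305 promoter windows, 0.0659%, and in 2 of 11500 windows of genes tested here. The single arm AGGTCA, searched on both strands, was found in 3 of the 38 windows, those of GASK1B and ARHGAP15, which rose in ERβ1 cells, and SEMA5A, which fell. They are shown because they are the only such matches among the 38 windows, with the motif in capitals and each sequence 5′ to 3′ on the gene's own strand. Positions of the motif's first base are counted from 0 at the annotated start.
GASK1B (chr4:158172976-158173275, minus strand, motif at -133): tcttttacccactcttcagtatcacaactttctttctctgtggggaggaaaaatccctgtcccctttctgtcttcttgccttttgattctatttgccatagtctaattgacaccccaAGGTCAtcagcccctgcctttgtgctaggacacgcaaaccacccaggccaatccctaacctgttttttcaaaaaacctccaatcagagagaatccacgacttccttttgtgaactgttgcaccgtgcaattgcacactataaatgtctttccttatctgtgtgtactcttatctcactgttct
ARHGAP15 (chr2:143129169-143129468, plus strand, motif at 29): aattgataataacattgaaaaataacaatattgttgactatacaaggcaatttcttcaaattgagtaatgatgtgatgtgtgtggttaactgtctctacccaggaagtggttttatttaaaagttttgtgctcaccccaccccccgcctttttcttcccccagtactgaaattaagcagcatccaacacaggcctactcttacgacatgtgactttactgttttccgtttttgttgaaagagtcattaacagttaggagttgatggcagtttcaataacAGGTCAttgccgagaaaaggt
SEMA5A (chr5:9546026-9546325, minus strand, motif at -184): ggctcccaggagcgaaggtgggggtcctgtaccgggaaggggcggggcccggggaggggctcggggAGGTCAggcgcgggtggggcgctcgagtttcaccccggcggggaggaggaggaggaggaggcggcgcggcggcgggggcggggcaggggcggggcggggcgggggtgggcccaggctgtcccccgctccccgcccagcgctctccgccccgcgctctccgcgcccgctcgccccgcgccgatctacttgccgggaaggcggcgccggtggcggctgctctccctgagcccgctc

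The 3 windows hold 1 arm each, upstream of the RefSeq start in GASK1B and SEMA5A and downstream of it in ARHGAP15. The GASK1B and ARHGAP15 windows lie at RefSeq starts inside the longer genes of the annotation used for the counts. By that annotation the GASK1B arm also lies within the gene. The share of windows with AGGTCA was 9.91% among 111 genes higher by at least 2-fold (mean of at least 2 CPM, groups not overlapping), 5.88% among 34 genes lower by as much, and 9.91% among all genes tested. The AP-1 motif TGANTCA, also a palindrome, was found in 10.8% of the 111 windows, 2.94% of the 34, and 4.86% of the windows of all tested genes. Binding was not measured here, and a match of letters is a description of these windows alone.

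With edgeR's quasi-likelihood test at an adjusted p under 0.05, 21.4% of the genes tested were called, 1825 higher (10.7%) and 1820 lower (10.7%). The balance of the calls shifted with the size of the change and with the level of the gene. Changes of at least 2-fold were mainly rises, 464 genes (2.72%) against 162 falls (0.95%), and changes of at least 4-fold were 146 rises and 72 falls. Most of these were low transcripts: at a mean of at least 2 CPM, 171 genes rose and 54 fell by at least 2-fold. Among the 2283 genes over 100 CPM the balance was the other way, with 225 higher and 612 lower, but the median size of those changes was 0.22 on the log2 scale and only 2 rises, UCA1 and LOXL4, and 1 fall, PPME1, reached 2-fold. Long noncoding RNAs, at a median of 0.72 CPM, were called higher in 184 and lower in 80 of 2443 cases. Protein-coding genes, at a median of 27.3 CPM, were called higher in 1586 and lower in 1718 of 13697. The groups did not overlap for 39.6% of the genes tested, and for 3635 of the 3645 called genes. Of the 626 genes changed by at least 2-fold, 438 were called without each of the 6 libraries in turn. Without control replicate 2 the lower calls numbered 1160, and 303 genes rose and 92 fell by at least 2-fold when only those with 1 CPM or more in 3 libraries were tested.

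**Figure D1:**
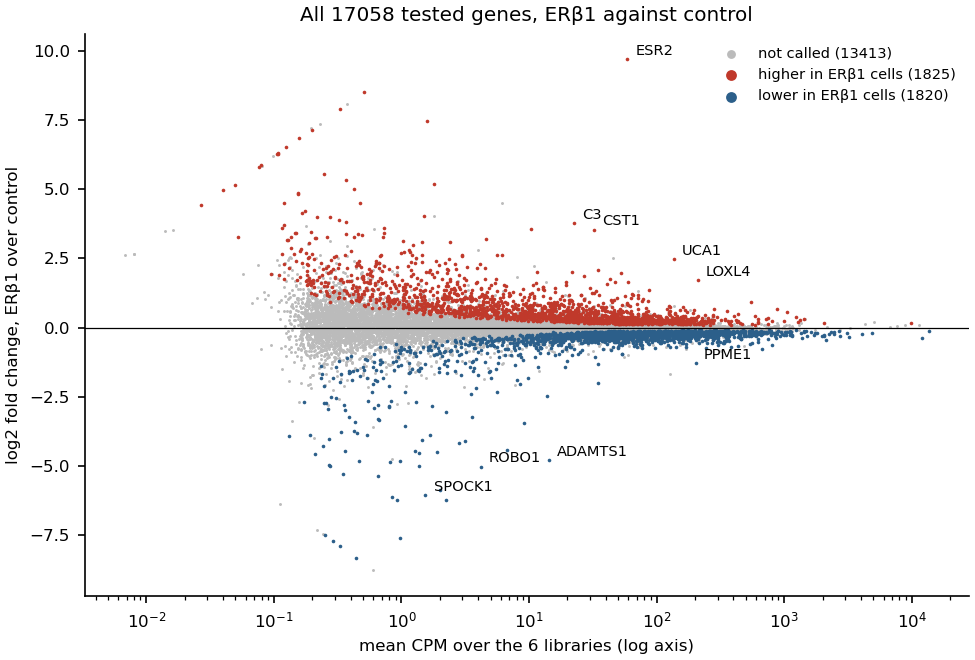
Log2 fold change of ERβ1 over control cells (vertical axis) against the mean CPM over the 6 libraries (horizontal log axis) for the 17058 genes tested, with genes called higher and lower in colour. Large rises outnumber large falls, 464 against 162 at 2-fold or more, and the many calls among abundant genes lie close to 0.

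UCA1, MPZL2 and HSPB8 were among the 20 largest rises at a mean of at least 2 CPM. These rises, the 20 largest falls and the ranked abundant genes below were picked only among called genes whose groups did not overlap. Their lack of overlap therefore follows from that rule. UCA1, a long noncoding RNA first described in urothelial cancer (chromosome 19, 15828206 to 15836326, GRCh38), stood at 232, 234 and 224 CPM in ERβ1 libraries, against 43.2, 40.4 and 40.5 CPM in control libraries. Every ERβ1 library held over 5 times the level of every control library, and the change was the largest rise among genes over 100 CPM (log2 fold change 2.47, SE 0.04, edgeR adjusted p = 3.68e-09). MPZL2, an adhesion protein of the immunoglobulin family, stood at 10.4, 10.9 and 10.5 CPM in ERβ1 cells, against 2.09, 1.70 and 1.37 CPM in control cells (log2 fold change 2.62, edgeR adjusted p = 5.41e-06). HSPB8, a small heat shock protein that acts as a chaperone, stood at 9.75, 9.72 and 9.68 CPM in ERβ1 cells, against 1.45, 1.80 and 1.51 CPM in control cells (log2 fold change 2.61, edgeR adjusted p = 5.98e-07). In both genes the ERβ1 libraries were alike and lay far above all controls.

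ENG, CD34 and ADAM12 were among the 20 as well, and PODXL is given beside CD34. ENG, endoglin, is a co-receptor for TGF-beta ligands (chromosome 9, 127815012 to 127854756, GRCh38). It stood at 54.2, 53.1 and 60.8 CPM in ERβ1 libraries, against 14.04, 12.9 and 12.9 CPM in control libraries (log2 fold change 2.08, SE 0.07, edgeR adjusted p = 5.98e-07). CD34, a sialomucin of blood precursors and endothelium, stood at 7.16, 6.23 and 5.88 CPM in ERβ1 cells, against 1.32, 1.31 and 1.65 CPM in control cells. PODXL, podocalyxin, belongs to the same sialomucin family and stood at 712, 724 and 735 CPM in ERβ1 cells, against 388, 384 and 363 CPM in control cells. Both rose in all 3 libraries, by 2.17 and 0.94 on the log2 scale (edgeR adjusted p = 8.76e-06 and 5.98e-07). ADAM12, a membrane-bound metalloprotease, averaged 7.43 ± 0.331 CPM in ERβ1 cells and 1.66 ± 0.285 CPM in control cells (SD, n = 3 each), a log2 fold change of 2.16. The summed blood cell markers were also higher in ERβ1 cells, by the values given above, and their part in the rise of CD34 was not tested, while PTPRC, the pan-leukocyte marker, was at 0.470 CPM in ERβ1 cells and 0.0224 CPM in control cells.

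Further named rises stood at lower levels. NXF3, of the nuclear RNA export factor family, averaged 6.85 ± 0.437 CPM in ERβ1 cells and 1.37 ± 0.272 CPM in control cells. ARHGAP15, which switches off Rac, averaged 3.70 ± 0.319 CPM in ERβ1 cells and 0.852 ± 0.0550 CPM in control cells, and PADI3, an enzyme that converts arginine to citrulline in hair follicle proteins, 3.72 ± 0.266 CPM in ERβ1 cells and 0.883 ± 0.118 CPM in control cells (SD, n = 3 each). Their log2 fold changes were 2.31, 2.11 and 2.07. TGFB3, a TGF-beta ligand, was also named by its size (log2 fold change 2.46, edgeR adjusted p = 0.0388), with 1.67, 9.10 and 1.12 CPM in ERβ1 libraries and 0.792, 0.793 and 0.582 CPM in control libraries. ERβ1 replicate 2 alone set that size, since without it the log2 fold change was 0.95 with an edgeR adjusted p of 0.0363, and the call was lost without each control library, with an adjusted p of up to 0.115. TGFB3 also lies in the stretch of chromosome 14 described further on. FBXL16, second in rank, rested likewise on ERβ1 replicate 1, at 49.9, 4.19 and 3.45 CPM in ERβ1 libraries and 1.69, 1.38 and 1.77 CPM in control libraries, with a log2 fold change of 1.25 without it, and 3 of the 6 fits with a library left out did not call it (edgeR adjusted p up to 0.1001). The other 18 of the 20 largest rises were called without each library in turn. C3, CST1, PTGS2, GASK1B, GREB1, SNAI1, CST2, SPANXD and CST4 complete the 20, with log2 fold changes between 2.01 and 3.78.

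**Figure D2:**
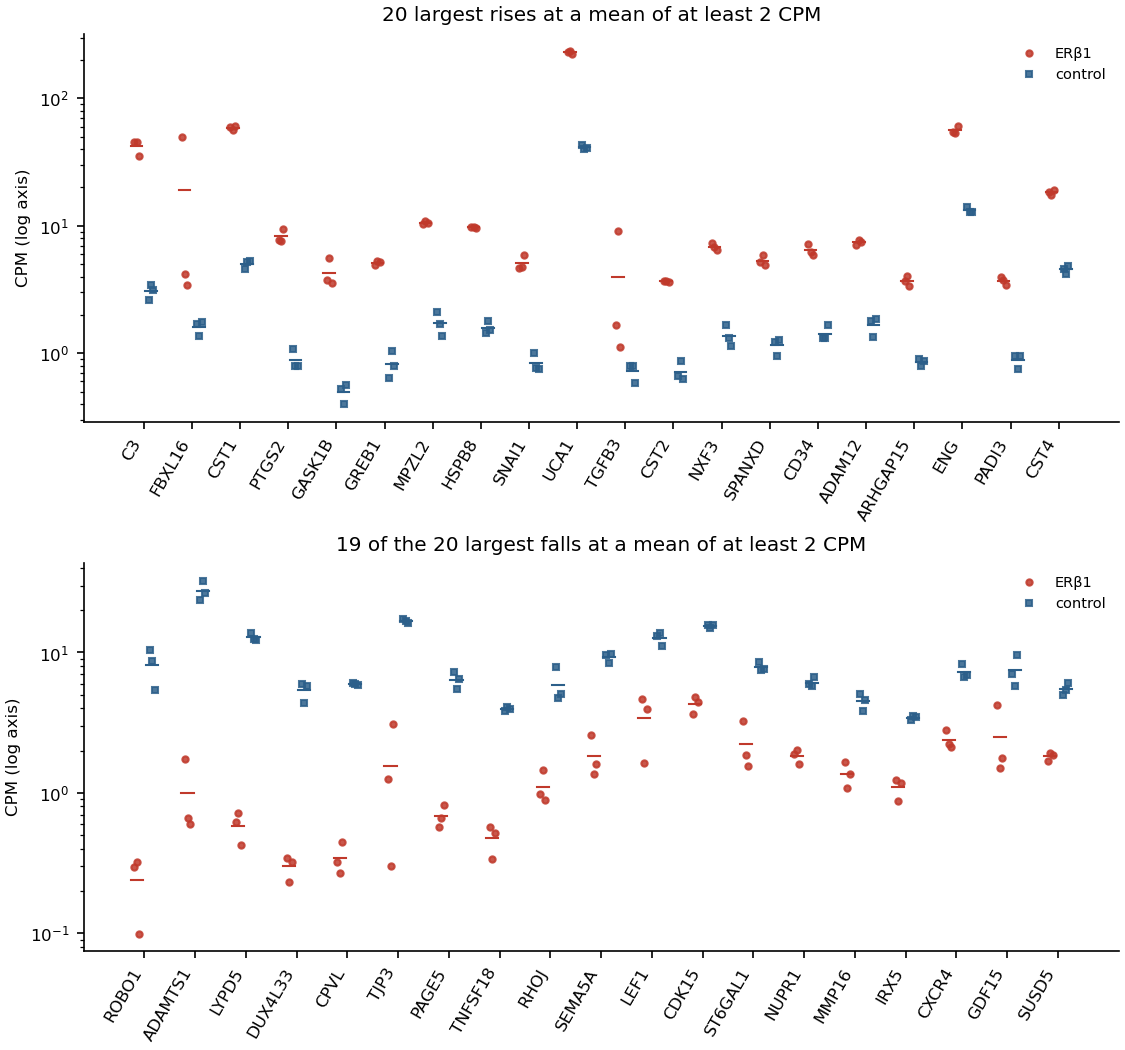
Level in each library (CPM, log axis) of the 20 largest rises (upper panel) and of 19 of the 20 largest falls (lower panel) at a mean of at least 2 CPM, ERβ1 libraries as circles left of control libraries as squares, with lines at the group means. By the rule of choice the groups do not overlap for any gene shown. FBXL16 and TGFB3 each have 1 ERβ1 library far above the others. UCA1 stands apart in level, at 223.9 to 234.0 CPM in ERβ1 libraries and 40.4 to 43.2 CPM in control libraries.

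TNFSF18 and CDK15 were among the 20 largest falls at a mean of at least 2 CPM. TNFSF18, the ligand of the T cell receptor GITR, stood at 0.572, 0.339 and 0.521 CPM in ERβ1 libraries, against 3.81, 4.08 and 3.98 CPM in control libraries. The 3 ERβ1 libraries all lay under 1 CPM and the controls close to 4 CPM (log2 fold change -3.06, SE 0.21, edgeR adjusted p = 2.49e-05). CDK15, a little-studied member of the cyclin-dependent kinase family (chromosome 2, 201790461 to 201895550, GRCh38), stood at 3.62, 4.82 and 4.47 CPM in ERβ1 cells, against 15.7, 14.9 and 15.7 CPM in control cells (log2 fold change -1.84, edgeR adjusted p = 6.91e-05).

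Most of the remaining named falls were smaller. ST6GAL1, which adds sialic acid to glycoproteins, fell by 1.83 on the log2 scale, NUPR1, a stress-induced nuclear protein, by 1.72, MMP16, a membrane-type metalloprotease, by 1.72, the homeobox gene IRX5 by 1.65 and SUSD5 by 1.58. MMP16 and IRX5 lie in windows of chromosomes 8 and 16 where the median gene was also lower, at -0.17 in each. NUPR1 stood at 1.90, 2.02 and 1.61 CPM in ERβ1 libraries, against 5.94, 5.74 and 6.64 CPM in control libraries. GDF15, a stress-induced cytokine, was named too (log2 fold change -1.59, edgeR adjusted p = 0.0421), a call lost without each control library and without ERβ1 replicate 2 or 3, the adjusted p reaching 0.132. DUX4L33, a copy of a repeated gene whose reads can be shared with its relatives, fell by 4.17, and that value is uncertain. ROBO1, ADAMTS1, LYPD5, CPVL, TJP3, PAGE5, RHOJ, SEMA5A, LEF1 and CXCR4 were also among the 20, with log2 fold changes between -5.03 and -1.61. Apart from GDF15, all of these were called without each library in turn.

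Genes detected in 1 group alone were taken as those with 0 counts in all 3 libraries of a group and at least 10 counts in each library of the other. There were 4 of each kind. Silent in ERβ1 cells were AGR2, SGCZ, PLD5 and DSCAM. SGCZ, a sarcoglycan, had 26, 42 and 19 counts in control libraries, PLD5, of the phospholipase D family, 32, 24 and 21, and DSCAM, a neuronal adhesion molecule, 28, 19 and 19. Against a floor of 3 counts per library these were at least 10.1-fold, 8.91-fold and 7.64-fold lower in ERβ1 cells. Silent in control cells were RNF223, CST5, SPATA31D3 and CPN2. RNF223, a ring finger gene, had 42, 57 and 43 counts in ERβ1 libraries, and CPN2, the non-catalytic subunit of carboxypeptidase N, 15, 13 and 15, at least 14.8-fold and 4.60-fold higher. SPATA31D3 had 11, 10 and 31 counts in ERβ1 libraries, at least 5.83-fold higher, and belongs to a family of similar copies, so its count is uncertain. All 8 were called by edgeR, with adjusted p up to 0.0106, and the bounds cover counting error only.

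Abundant transcripts showed smaller differences. LOXL4, a secreted enzyme that cross-links collagen and elastin (chromosome 10, 98247690 to 98268250, GRCh38), stood at 321.01, 321.10 and 320.80 CPM in ERβ1 libraries, against 95.7, 96.7 and 98.3 CPM in control libraries. The ERβ1 libraries differed from each other by less than 1 CPM, and the rise was 3.31-fold (log2 fold change 1.73, SE 0.02, edgeR adjusted p = 1.23e-09). GSN, gelsolin, which severs actin filaments, stood at 158.88, 158.91 and 158.93 CPM in ERβ1 cells, against 92.9, 89.0 and 93.4 CPM in control cells. LOXL4 and GSN held 44943 and 22249 counts over the 3 ERβ1 libraries. Counting error alone is larger than their spread there, which is therefore no measure of precision. COL5A1, a chain of fibrillar type V collagen, averaged 203 ± 8.997 CPM in ERβ1 cells and 121 ± 12.1 CPM in control cells, TCIRG1, a subunit of the proton pump V-ATPase, 149 ± 14.2 CPM in ERβ1 cells and 92.7 ± 6.14 CPM in control cells, and IGFBP4, which binds insulin-like growth factors, 1069 ± 30.5 CPM in ERβ1 cells and 672 ± 22.6 CPM in control cells (SD, n = 3 each). These 4 rose by 0.79, 0.75, 0.68 and 0.67 on the log2 scale. SPANXB1, a sperm protein that cancers can express, rose by 0.74 and has near-identical copies, so its value is uncertain. It lies between 140 and 150 Mb of the X chromosome and is itself the median gene of that window.

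Among abundant genes that fell, PPME1 showed the largest change. It encodes the methylesterase that demethylates protein phosphatase 2A (chromosome 11, 74171099 to 74254703, GRCh38), and it stood at 133, 94.7 and 123 CPM in ERβ1 libraries, against 293, 298 and 273 CPM in control libraries. The ERβ1 libraries varied among themselves, and by the rule of choice all lay under the lowest control (log2 fold change -1.30, SE 0.12, edgeR adjusted p = 0.000108). PTPRF, the receptor tyrosine phosphatase LAR, averaged 492 ± 21.8 CPM in ERβ1 cells and 844 ± 12.1 CPM in control cells, and COL13A1, a transmembrane collagen, 184 ± 4.85 CPM in ERβ1 cells and 307 ± 8.74 CPM in control cells (SD, n = 3 each). RASA1, which switches off Ras, fell by 0.71 on the log2 scale, PGD of the pentose phosphate pathway by 0.71, the fatty acid desaturase SCD by 0.69, TIMP3, an inhibitor of metalloproteases, by 0.69 and the RNA helicase DDX39B by 0.66. PTPRF and PGD lie in the stretch of chromosome 1 described further on, where the median gene was also lower. All 16 of these abundant genes were called without each library in turn.

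**Figure D3:**
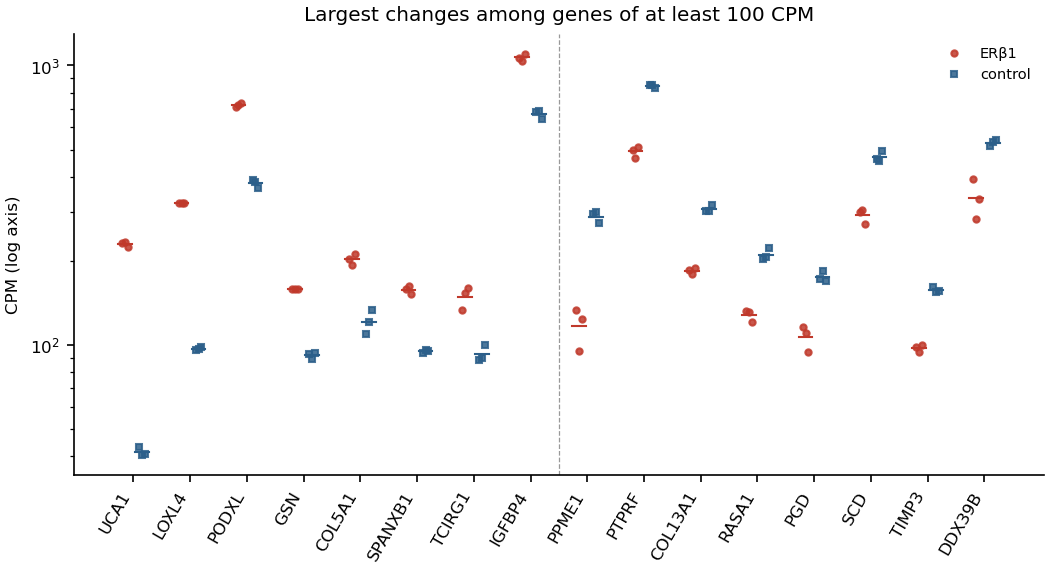
Level in each library (CPM, log axis) of the 8 genes with the largest rises (left of the dashed line) and the 8 with the largest falls at a mean of at least 100 CPM, ERβ1 libraries as circles left of control libraries as squares, with lines at the group means. LOXL4 separates the groups most sharply among the rises apart from UCA1, at 321 CPM on average in ERβ1 cells and 96.9 CPM in control cells, and PPME1 among the falls, at 117 CPM in ERβ1 cells and 288 CPM in control cells.

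The levels with CLI are given beside those without it for the same genes, and both comparisons use the same ERβ1 libraries. LOXL4 averaged 1185 ± 13.3 CPM with CLI, against 321 ± 0.152 CPM in ERβ1 cells without it (SD, n = 3 each), on the log2 scale a difference of 1.88 (edgeR adjusted p = 1.10e-09). HSPB8 averaged 20.7 ± 0.540 CPM with CLI against 9.72 ± 0.0343 CPM without, and PODXL 1073 ± 26.4 CPM with CLI against 724 ± 11.7 CPM without. For ENG the values were 56.4 ± 3.42 and 56.0 ± 4.17 CPM, with CLI and without, a log2 difference of 0.01 (edgeR adjusted p = 0.975), and for MPZL2 7.94 ± 0.267 and 10.6 ± 0.296 CPM (log2 difference -0.41, edgeR adjusted p = 0.186). Of all genes tested 1.04% were called higher and 0.428% lower with CLI. ESR2 itself averaged 84.2 ± 3.09 CPM with CLI, against 117 ± 1.51 CPM without it (log2 difference -0.48, edgeR adjusted p = 0.000363). PPME1 stood at 107 ± 9.05 CPM with CLI and 117 ± 19.8 CPM without.

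Gene groups are described by their counts of calls, beside 10.7% higher and 10.7% lower and a median log2 fold change of -0.000569 over all genes tested. That baseline varied with level. Under 2 CPM, 397 of 4473 genes were higher and 139 lower, with a median of 0.15, and over 100 CPM the median was -0.06. The lists were not matched for level. At 2 CPM or more were only 17 of 33 chemokines and interleukins and 17 of 49 cadherins and protocadherins. Without 1 library the calls over all genes were fewer too, 1357 to 1452 higher and 1160 to 1399 lower. With the 6 libraries compared alone and the replicate number as a block, 1115 were higher and 1115 lower. Higher calls of several lists below shrank in that fit, to 6 chemokines and interleukins, 8 metalloproteases and inhibitors and 15 solute carriers. They also shrank to 3 genes of FGF, VEGF, PDGF and HGF signalling, 6 KLF, SOX and FOX factors and 3 clock genes. The receptor's other family members and helpers come first. ESR1 and PGR were too low to be tested, with 12 and 6 counts over the 3 ERβ1 libraries and 1 and 2 over the 3 control libraries. GPER1, a membrane receptor for oestrogen, averaged 1.29 ± 0.354 CPM in ERβ1 cells and 1.30 ± 0.339 CPM in control cells, and ESRRA, an orphan relative, 41.5 ± 9.77 CPM in ERβ1 cells and 42.0 ± 1.48 CPM in control cells (SD, n = 3 each), and neither was called. Of 42 coregulators and partner factors, 7 were higher and 8 lower. NCOA1, the coactivator SRC-1, stood at 75.7, 76.9 and 76.2 CPM in ERβ1 libraries, against 40.8, 44.3 and 43.7 CPM in control libraries, without overlap (log2 fold change 0.83, edgeR adjusted p = 4.02e-06). TFAP2C, a factor of mammary epithelium, rose by 0.52 on the log2 scale, whereas the pioneer factor FOXA2, the orphan receptor NR2F2 and CITED2, a partner of CBP and p300, fell by 1.05, 0.29 and 0.31. Of 41 genes known to respond to oestrogen in other breast cancer cells, 20 were higher and 4 lower, with a median of 0.30, and 2 were lower without control replicate 1. SERPINA1, an inhibitor of neutrophil elastase, averaged 89.9 ± 1.99 CPM in ERβ1 cells and 39.2 ± 1.60 CPM in control cells, and TGM2, which cross-links proteins, 1238 ± 14.5 CPM in ERβ1 cells and 845 ± 16.1 CPM in control cells (SD, n = 3 each; 2.29-fold and 1.47-fold higher).

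**Figure D4:**
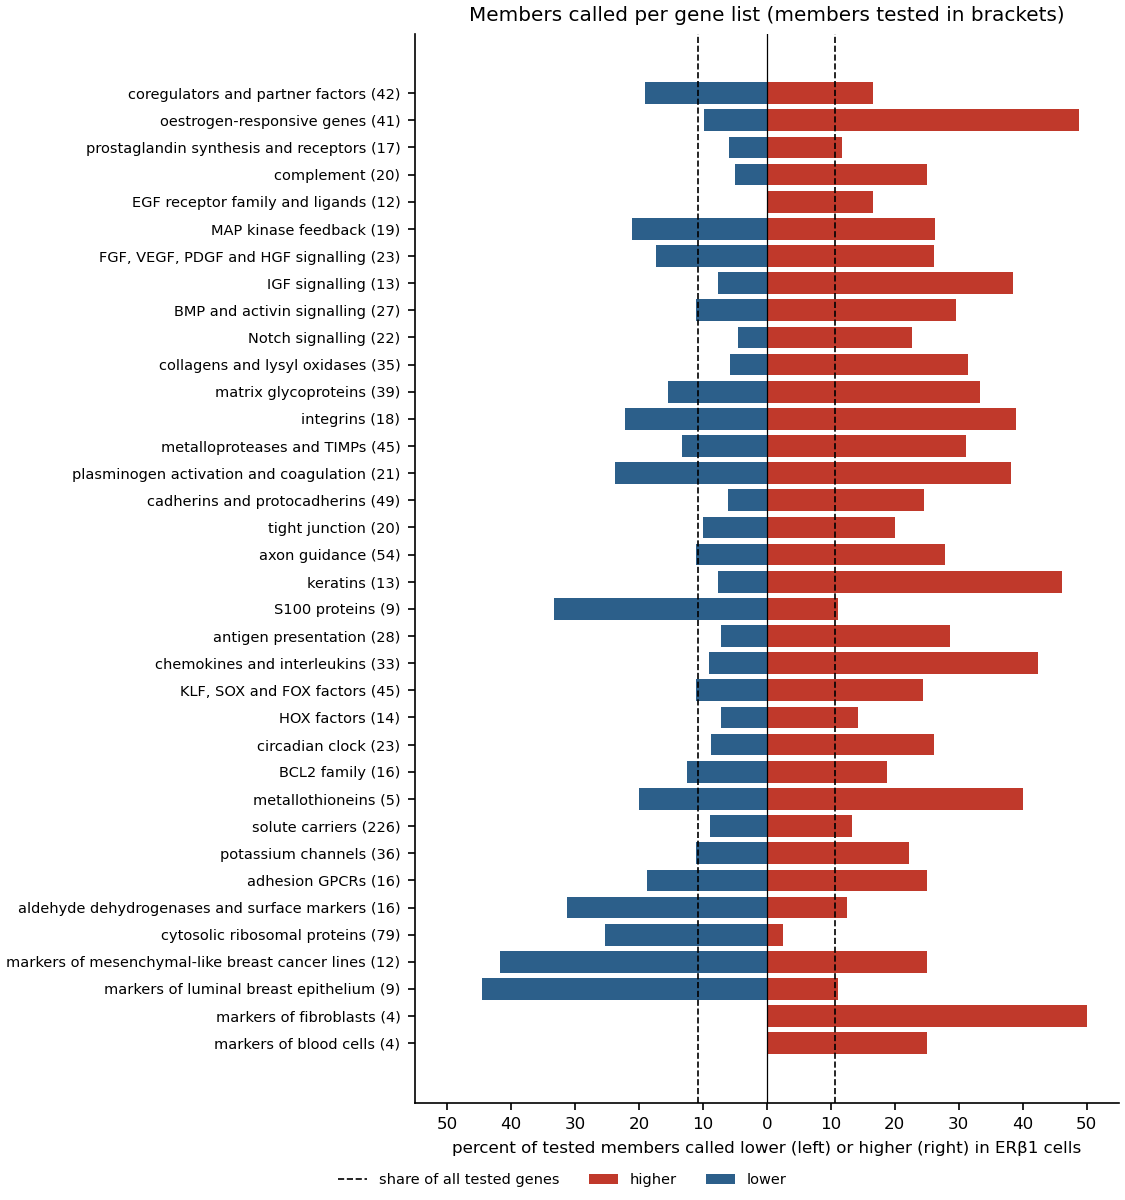
Share of the tested members of 36 gene lists called higher (bars to the right) and lower (bars to the left) in ERβ1 cells, in percent, with dashed lines at the 10.7% of all tested genes called in each direction. Oestrogen-responsive genes stand at 20 higher and 4 lower of 41, and cytosolic ribosomal proteins at 2 higher and 20 lower of 79. The ribosomal protein genes are abundant, and of all 2283 tested genes over 100 CPM 612 were lower.

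Growth factor pathways moved in both directions. Of 27 genes of BMP and activin signalling, 8 were higher and 3 lower. Without ERβ1 replicate 2 or 3 these numbered 5 and 1, and without control replicate 1 or 2 the lower calls also numbered 1. INHBA, the activin A subunit, stood at 76.5, 79.4 and 78.4 CPM in ERβ1 libraries, against 35.2, 35.3 and 36.0 CPM in control libraries (log2 fold change 1.14, edgeR adjusted p = 3.96e-07). Among the antagonists of these ligands NOG rose by 0.77 and FSTL3 by 0.80, while FST, follistatin, fell by 0.84 to 12.9 ± 0.133 CPM in ERβ1 cells, against 23.03 ± 1.41 CPM in control cells. Of 23 genes of FGF, VEGF, PDGF and HGF signalling, 6 were higher and 4 lower: the placental growth factor gene PGF rose by 1.06, and the receptor genes AXL and MET and the AXL ligand gene GAS6 fell by 0.25, 0.26 and 0.32. PGF and GAS6 lie in stretches of chromosomes 14 and 13 whose genes moved in the same direction. Of 13 genes of IGF signalling, 5 were higher and 1 lower, with the list's hormone STC1, stanniocalcin, at 102 ± 2.77 CPM in ERβ1 cells and 62.0 ± 2.18 CPM in control cells, and IGF2 at 2.87 ± 0.266 CPM in ERβ1 cells and 1.00 ± 0.154 CPM in control cells (SD, n = 3 each). Of 12 genes of the EGF receptor family, 2 were higher, the ligand genes TGFA and HBEGF by 0.40 and 0.19, and 0 lower. The call of HBEGF was lost without control replicate 2 (edgeR adjusted p = 0.0558). Of 22 Notch genes, 5 were higher and 1 lower, among them the target HES1 (log2 fold change 1.22, edgeR adjusted p = 5.59e-06) and LFNG, which glycosylates Notch (0.66). Of 19 genes of MAP kinase feedback, 5 were higher and 4 lower, with IER3 at 0.49 and the inhibitor SPRY2, on chromosome 13, at -0.52.

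In each list of extracellular matrix genes more were called higher than lower, as in most of the gene lists counted here. Of 35 collagens and lysyl oxidases, 11 were higher and 2 lower, with a median of 0.37, and 1 was lower without ERβ1 replicate 2 or 3 or control replicate 2 or 3. COL7A1, of anchoring fibrils, averaged 75.2 ± 11.3 CPM in ERβ1 cells and 41.3 ± 2.92 CPM in control cells, and the basement membrane chain gene COL4A4 9.36 ± 0.773 CPM in ERβ1 cells and 3.26 ± 0.973 CPM in control cells (SD, n = 3 each). Of 39 matrix glycoproteins, 13 were higher and 6 lower. SPOCK1, a testican proteoglycan, stood at 0.0458, 0.0535 and 0.0248 CPM in ERβ1 libraries, against 3.43, 2.85 and 2.80 CPM in control libraries, a larger fold than any of the 20 ranked falls, at a level under their limit of 2 CPM (log2 fold change -6.06, edgeR adjusted p = 8.74e-06). EFEMP1, a fibulin, rose by 0.54, and OLFML3 by 2.63. Of 18 integrins, 7 were higher and 4 lower: the vitronectin receptor chain ITGB3 rose by 0.92 and the collagen receptor chain ITGA1 by 0.59, while ITGA6 and ITGB4, which pair as a laminin receptor, fell by 0.43 and 0.55. Of 45 metalloproteases and inhibitors, 14 were higher and 6 lower, with ADAM19 at 0.60 and stromelysin MMP3 at 2.61. Of 21 genes of plasminogen activation and coagulation, 8 were higher and 5 lower, with the plasminogen activator PLAT at 113 ± 10.6 CPM in ERβ1 cells and 161 ± 4.82 CPM in control cells (SD, n = 3 each). PLAT fell by 0.51 on the log2 scale.

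Junction and guidance genes followed. Of 49 cadherins and protocadherins, 12 were higher and 3 lower, with CDH24 among the rises at 0.33 and the retinal cadherin CDH4 among the falls at -0.52. The higher calls numbered 7 without ERβ1 replicate 3 or control replicate 2, and DESeq2 called 5 lower. The clustered PCDHB genes share sequence, so their values are uncertain. Of 20 tight junction genes, 4 were higher and 2 lower, with CLDN11 at 1.12 ± 0.165 CPM in ERβ1 cells and 0.221 ± 0.0307 CPM in control cells (SD, n = 3 each), and 1 was lower whichever of the 6 libraries was left out. Of 54 axon guidance genes, 15 were higher and 6 lower. The higher calls numbered 9 without ERβ1 replicate 1 or control replicate 3. SEMA3B, a secreted semaphorin, stood at 63.7, 64.9 and 70.9 CPM in ERβ1 libraries, against 20.7, 19.0 and 19.6 CPM in control libraries (log2 fold change 1.75, edgeR adjusted p = 3.32e-07). SEMA6B, a membrane-bound semaphorin, rose by 0.85, and the ephrin receptor EPHA2, on the short arm of chromosome 1, fell by 0.54. Of 13 keratins, 6 were higher and 1 lower. KRT81, a hair keratin, stood at 89.7, 92.2 and 90.8 CPM in ERβ1 libraries, against 28.8, 29.7 and 29.2 CPM in control libraries (log2 fold change 1.64, edgeR adjusted p = 1.55e-08), and KRT86 rose by 1.15. These 2 hair keratins have close paralogs, so the split of reads is uncertain, whereas KRT80 rose by 0.48. Of 9 S100 proteins, 1 was higher, S100A16 by 0.29, and 3 lower, with S100A10 at -0.21, and 2 were higher with the filter at 1 CPM.

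Immune and stress-related groups were counted next. Of 33 chemokines and interleukins, 14 were higher and 3 lower, with a median of 0.58, IL32 among the rises at 0.52 and IL1A at 0.58. Their higher calls numbered 8 without ERβ1 replicate 3 and 9 without control replicate 2. Of 28 genes of antigen presentation, 8 were higher and 2 lower. Without ERβ1 replicate 1 or control replicate 2 the higher calls numbered 5, and the lower calls numbered 0 without ERβ1 replicate 3 or control replicate 1 or 2 and 1 without each of the other libraries. The class II genes HLA-DRA, HLA-DMA and HLA-DPA1 rose by 0.49, 0.43 and 0.58, and CD74, the invariant chain, averaged 102 ± 2.51 CPM in ERβ1 cells and 76.5 ± 4.29 CPM in control cells (SD, n = 3 each). The summed blood cell markers were higher in the same libraries, at 97.6 to 100.2 CPM in ERβ1 cells and 86.3 to 87.8 CPM in control cells, and their part in this was not tested. Among the myeloid markers ITGAM held 43 counts over the 3 ERβ1 libraries and 0 over the 3 control libraries, LYZ 50 in ERβ1 and 8 in control, CD14 342 in ERβ1 and 200 in control, and CSF1R 690 in ERβ1 and 513 in control, of which LYZ was called. The pan-leukocyte marker PTPRC held 62 counts in ERβ1 and 3 in control, and the T cell marker CD3E 2 in ERβ1 and 3 in control. Of 20 complement genes, 5 were higher and 1 lower, with the protease gene C1R at 0.57 besides C3. The higher calls numbered 2 without ERβ1 replicate 3, near the share of all genes, and 3 without control replicate 1 or 3, and DESeq2 called 2 lower. Of 17 genes of prostaglandin synthesis and receptors, 2 were higher and 1 lower: the thromboxane receptor gene TBXA2R rose by 0.56 besides PTGS2, and the exporter gene ABCC4, on chromosome 13, fell by 0.35. Of 5 metallothioneins, 2 were higher and 1 lower, with MT1X at 21.0 ± 0.935 CPM in ERβ1 cells and 11.7 ± 0.316 CPM in control cells, a value uncertain because of close copies. Of 16 BCL2 family genes, 3 were higher and 2 lower: BMF, which promotes apoptosis, rose by 1.10, and BCL2, on chromosome 18, fell by 0.56, a call lost without control replicate 1 (edgeR adjusted p = 0.0549). The lower calls of this list numbered 0 without that library and 1 without each of the others except control replicate 2.

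Transcription factors, clock genes, transporters and channels were counted as well. HOX factors, at 14.3% higher and 7.14% lower, lay near the 10.7% each way of all genes tested. The same held for solute carriers, at 13.3% higher and 8.85% lower. Of 45 KLF, SOX and FOX factors, 11 were higher and 5 lower, with FOXO1 at 0.79, KLF10 at 0.49 and FOXQ1 at -0.45. Of 14 HOX factors, 2 were higher, HOXD1 by 0.55 and HOXD3 by 0.55, and 1 lower, HOXB9 by 0.23. HOXD3 lost its call without ERβ1 replicate 1 or 2 or control replicate 1 or 3 (edgeR adjusted p up to 0.0933) and with no filter, and HOXB9 in 12 of 16 alternatives (edgeR adjusted p up to 0.168), among them each library left out except control replicate 3. Of 23 clock genes, 6 were higher and 2 lower, or 1 lower with the filter at 1 CPM. NR1D1, the repressor REV-ERB alpha, stood at 18.1, 19.6 and 18.9 CPM in ERβ1 libraries, against 7.22, 8.10 and 6.76 CPM in control libraries (log2 fold change 1.36, edgeR adjusted p = 6.75e-06). BHLHE40, the repressor DEC1, averaged 105 ± 2.46 CPM in ERβ1 cells and 51.7 ± 1.35 CPM in control cells (SD, n = 3 each). Of 226 solute carriers, 30 were higher and 20 lower: the iron exporter SLC40A1 rose by 0.90 and the organic cation transporter SLC22A3 by 0.85. The lower calls numbered 12 without ERβ1 replicate 3 and 13 without control replicate 2. Of 36 potassium channels, 8 were higher and 4 lower, most at low levels, with KCNS3 at 4.83 ± 0.352 CPM in ERβ1 cells and 2.88 ± 0.254 CPM in control cells (SD, n = 3 each). Of these channels 5 were higher with the 6 libraries compared alone, and 5 higher and 2 lower with the filter at 1 CPM. Of 16 adhesion G protein-coupled receptors, 4 were higher and 3 lower, and 2 were higher without ERβ1 replicate 1 or 2 or control replicate 2 or 3. ADGRL2, a latrophilin, stood at 15.04, 14.4 and 14.4 CPM in ERβ1 libraries, against 30.4, 27.3 and 29.6 CPM in control libraries (log2 fold change -0.99, edgeR adjusted p = 1.17e-05), and ADGRF1 fell by 0.95. Of 16 aldehyde dehydrogenases and surface markers of stem-like cells, 2 were higher and 5 lower, with ENG among the rises and CD24, at 0.746 ± 0.206 CPM in ERβ1 cells and 2.04 ± 0.685 CPM in control cells, among the falls, and 1 was higher without ERβ1 replicate 3 or control replicate 2 or 3. Of 79 cytosolic ribosomal proteins, 2 were higher and 20 lower, with a median of -0.05, and 1 was higher without ERβ1 replicate 1 or 2 or control replicate 2 or 3. This list is abundant, with a sum of 37284 to 38818 CPM in ERβ1 libraries. Its lower share, 25.3%, was near that of genes over 100 CPM, of which 612 of 2283 were lower. RPLP0, of the ribosomal stalk, averaged 1551 ± 50.4 CPM in ERβ1 cells and 1892 ± 35.7 CPM in control cells (SD, n = 3 each). Reads of these genes can be shared with processed pseudogenes, and 6 of the 20 lay in the chromosomal windows described next.

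Calls were unevenly spread over the genome. For genes of at least 2 CPM, the genome was divided into 291 windows of 10 Mb, and in 34 of them the median gene was displaced by 0.15 or more on the log2 scale, and in 31 of these it was lower in ERβ1 cells. Over the first 80 Mb of chromosome 1, 33 of 549 genes were higher and 248 lower, with a median of -0.24. On chromosome 13, 10 of 208 were higher and 81 lower, and on chromosome 18, 7 of 166 and 60, with medians of -0.19 and -0.20. These 3 stretches held 7.33% of the genes and 23.1% of the lower calls. All stretches given here, with their bounds, were picked after the window values were seen, so their counts describe the shift and do not test it. From 60 to 80 Mb of chromosome 14, which includes ESR2, 75 of 120 genes were higher and 1 lower, with a median of 0.28. The 1 lower gene was RHOJ. Between 140 and 150 Mb of the X chromosome the calls numbered 7 higher and 1 lower of 15, with a median of 0.74. Outside these 5 stretches they numbered 1296 higher and 1290 lower of 11527. That remainder still held lower windows, on chromosomes 6, 8, 9 and 16. From 50 to 60 Mb of chromosome 8, for example, 0 of 19 genes were higher and 11 lower, with a median of -0.24. When the genes of all 34 windows were left out of the count, a choice made after seeing the data, 1659 genes were higher and 1314 lower.

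The shift was seen in each library. Set against the mean of the control libraries, the median gene of the chromosome 1 stretch lay at -0.24 to -0.22 in the 3 ERβ1 libraries and at -0.02 to 0.01 in the 3 control libraries. On chromosome 14 the medians were 0.28 to 0.31 in ERβ1 libraries and -0.01 to 0.03 in control libraries. The ERβ1 libraries with CLI lay at -0.25 to -0.23 and at 0.33 to 0.34 in the same stretches. Both stretches were picked by the difference between ERβ1 and control libraries. In both of them the control libraries did not overlap with the ERβ1 libraries, with or without CLI. DNA copy number was not analysed here, and receptor action cannot be told apart in these stretches from other differences between the transduced populations. Some named genes went against their surroundings: PADI3 rose on chromosome 1, where its window had a median of -0.31, and RHOJ fell on chromosome 14, where its window had a median of 0.29.

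**Figure D5:**
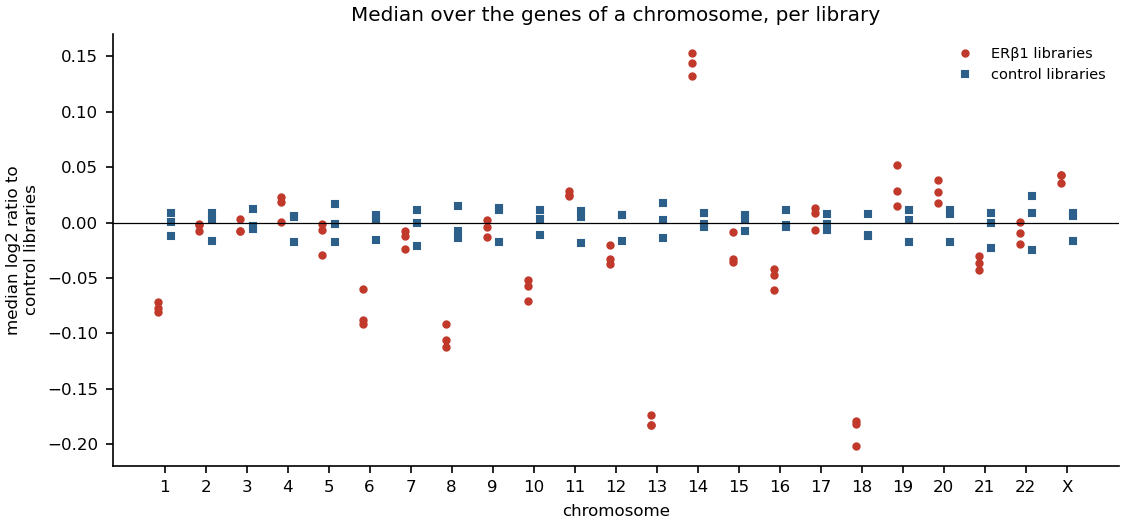
Median log2 ratio to the control libraries over the genes of each chromosome (vertical axis; genes of at least 2 CPM), 1 symbol per library, ERβ1 libraries as circles left of control libraries as squares. The ERβ1 libraries lie lowest on chromosomes 13 and 18, with medians between -0.20 and -0.17, while the control libraries lie close to 0 on every chromosome.

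A cluster of cancer-testis genes on the X chromosome, between 140 and 150 Mb, gave the window with the largest median, 0.74 over 15 genes, of which 7 were higher and 1 lower. That median is the value of SPANXB1. MAGEC1, a melanoma antigen family member, stood at 21.5, 24.4 and 23.5 CPM in ERβ1 libraries, against 9.24, 8.26 and 8.20 CPM in control libraries. LDOC1, a gene derived from a retrotransposon, stood at 45.0, 41.6 and 45.0 CPM in ERβ1 libraries, against 19.0, 19.6 and 17.2 CPM in control libraries. Both rose without overlap, by 1.43 and 1.23 on the log2 scale. MAGEC2, of the same family as MAGEC1, fell to 20.9 ± 0.638 CPM in ERβ1 cells, against 30.8 ± 0.646 CPM in control cells (SD, n = 3 each). The 5 SPANX genes called higher here are near-identical copies, so how reads were divided among them is uncertain. IDS and FMR1, other genes of the same window, stood at 158 ± 6.54 and 50.2 ± 0.309 CPM in ERβ1 cells, against 165 ± 2.83 and 50.4 ± 1.89 CPM in control cells, and neither was called.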

How the data were processed

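The submitters' processing notes name bcl2fastq 2.20, FastQC, Trimmomatic 0.38, Salmon 1.2.1, R 4.0.2, edgeR 3.30.3 and the GRCh38 build, without settings or annotation release. The authors deposited estimated counts for 60240 gene IDs and, for part of these, log2 CPM scaled by TMM, per the labels. Libraries were stranded messenger RNA libraries, per the labels' protocols. The labels number the cell line upward from MDA-MB-231, whereas the growth protocol has MDA-MB-231 alone, which was used for every library.

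Rounded estimated counts of all 9 libraries were fitted together in edgeR 4.0.16 (R 4.3.3), with filterByExpr by group, TMM scaling and group coefficients in a quasi-likelihood model. Tests were 2-sided, with Benjamini-Hochberg adjustment over the 17058 genes kept and a threshold of 0.05. The SE is the log2 fold change over the square root of F. No exact permutation p under 0.1 exists for 3 against 3 libraries, hence single genes rest on the model. Bounds for genes at 0 take 3 counts per library as the floor. Replicates differed by more than counting noise, with a chi-square per gene of 11.7 to 23.9, and no libraries were identical. Of the gene IDs, 58064 had a position in GENCODE release 29 (GRCh38); promoters came from RefSeq (GRCh38.p14). The script was tested on simulated data. Tables and plots were made in Python 3.11.15 with matplotlib 3.10.9 and pandas 2.3.3.

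The comparison, its 37 gene lists and the rules were chosen with earlier results of these data known. By rule the text names ESR2, and 20 rises and 20 falls, those with the largest changes among called genes that average 2 CPM or more, whose groups do not overlap and whose symbols are not those of clones, LOC or LINC entries, antisense or read-through transcripts. It also names the 8 largest of each kind at 100 CPM or more, up to 5 called members per list by adjusted p, and genes silent in 1 group. Genes of the X chromosome cluster and markers outside the rule were named after their values were seen. Alternatives changed the scaling (RLE, upper quartile, TMM leaving out ESR2), the filter (none, or 1 CPM in 3 libraries), the tool (DESeq2 1.42.0, or limma 3.58.1 with trend on the deposited log2 CPM) and the samples (the 6 libraries alone, a replicate block, each library left out). The AP-1 motif, the window filter and the bounds of the chromosomal stretches were added after the data were seen. A few genes and a gene list are not reported here.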

Additional observations from a re-analysis of the deposited data

How the results depend on the processing

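Main counts were 3645 genes called (1825 higher, 1820 lower) and 464 higher and 162 lower by at least 2-fold. With the 6 libraries compared alone and the replicate number as a block they were 2230 (1115 higher, 1115 lower), with 307 higher and 131 lower by at least 2-fold. With that block over all 9 libraries 3400 were called. The numbers were not taken as pairs because the labels do not say what a shared number means. Residuals of same-numbered libraries correlated at -0.10, -0.10 and 0.0067 over 11196 genes, and those of differently numbered libraries at -0.060 to 0.12. These residuals were centred within groups of 3, so they cannot settle whether the libraries were paired. With at least 1 CPM in 3 libraries, 303 rose and 92 fell by at least 2-fold, since that filter tests fewer low genes. Leaving out each library in turn gave 2517 to 2814 calls, 1357 to 1452 higher and 1160 to 1399 lower (1160 without control replicate 2), with 378 to 427 higher and 136 to 166 lower by at least 2-fold. DESeq2 called 4045 genes, limma-trend 3614, RLE scaling 3622, upper quartile scaling 3462 and no filter 3024. Without the genes of windows with a median of at least 0.15 in size, an alternative chosen after seeing the data, 2973 were called, 1659 higher and 1314 lower. Of 204 named genes, 198 to 204 of which were tested in each fit, none changed direction in the fits other than that without windows, where they were not counted; at most 16 lost their call in 1 fit, that with the block in 6 libraries. Low counts limit genes under 2 CPM, of which 11.98% were called, against 36.7% over 100 CPM.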
